A study of Mus musculus with 12 samples.

Results

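Chemokines and their receptors were described in uterine tissue of pregnant mice at 13.5 dpc, measured by RNA sequencing in 12 libraries of 3 groups. The genes were taken by symbol: Ccl and Cxcl followed by a number, Cx3cl1, Xcl1, and Ccr, Cxcr and Ackr followed by a number. The rule found 59 of the 24964 genes in the table, 39 ligands and 20 receptors, and used no measured value. All mice carried Myh11Cre, a Cre recombinase driven by the smooth muscle myosin heavy chain promoter. The 4 control libraries had Myh11Cre alone. The 4 PGR-A OE libraries, called PGR-A in the text, came from Myh11Cre; LSLPGRA/+ mice, which overexpress isoform A of the progesterone receptor in the myometrium. The 4 PGR-B OE libraries, called PGR-B in the text, came from Myh11Cre; LSLPGRB/+ mice, which overexpress isoform B there. The labels do not say whether each library came from a separate animal, so p-values measure the spread between these libraries, which may in part be technical. The RNA was of whole uterine tissue, and fewer cells of a type cannot be told apart from less RNA per cell.

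Chemokines are small secreted proteins that guide leukocytes along gradients by binding G protein-coupled receptors. They are named after the spacing of their first cysteines, as CC, CXC, CX3C and XC ligands, and a ligand often binds several receptors. The atypical receptors bind chemokines without classical G protein signalling and remove or transport them. In the pregnant uterus chemokines are known for the recruitment of macrophages, neutrophils and uterine NK cells, and for the inflammatory changes that come with labour.

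The libraries held 31872534 to 33078483 counts. Pgr, the overexpressed gene, averaged 121 ± 16.5 CPM (counts relative to the scaled library total) in control, 199.7 ± 38.5 in the PGR-A group and 223 ± 26.5 in the PGR-B group (mean ± SD, n = 4 in each), and neither overexpression group overlapped the controls. The 9 smooth muscle markers had sums of 13177 to 17300 CPM among controls, 17823 to 24339 among PGR-A and 12811 to 17032 among PGR-B libraries. The PGR-A libraries thus lay above every control, and all 9 markers had positive log2 differences there, 4 at an unadjusted p under 0.05 and 0 called, where 7.56% of all genes were higher at that p. The 7 dendritic cell markers also summed higher in every PGR-A library, at 698 to 929 CPM, than in any control, at 428 to 691 CPM, with 1 higher at an unadjusted p under 0.05 and 0 called. Ccr7, itself a member, is on this list and was the only 1 of the 7 with a negative log2 difference there (-0.34). The part of either list in the members' PGR-A values was not tested. The 5 general leukocyte markers summed to between 242 and 325 CPM, and the 7 epithelial markers to between 1241 and 2597 CPM, so the tissue held muscle, leukocytes and epithelium. PGR-A replicate 4 stood apart from the others on the leading axis of a principal component analysis (22.8% of the variance), and control replicate 4 had the highest sum of decidual markers (5388 CPM).

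Of the 59 genes, 45 had enough counts to be tested, 30 ligands and 15 receptors. A further 9 were counted but too low to test, and 5 had no count in any library. The 5 without a count were Ccl19, Ccl21a, Ccl21b, Ccl21c and Ccl27b. Ccl19 and the Ccl21 genes encode the ligands of Ccr7, the receptor that guides dendritic cells and T cells into lymph nodes. Ccl19, Ccl21a, Ccl21b, Ccl27a and Ccl27b lie on chromosome 4 in a region of near-identical copies. How reads that match several copies were treated is not given in the sources used here, and its part in these counts of 0 was not tested. The 9 untested genes reached at most 359 counts for Cxcl15, 29 for Cxcl11, 13 for Ccr4, 12 for Ccr9, 6 for Ccr6, 3 for Ccr8, 2 for each of Ccl1 and Cxcr1, and 1 for Ccl26. The receptors Ccr4, Ccr6 and Ccr9 were therefore near the limit of counting, while their ligands Ccl17 and Ccl22, Ccl20 and Ccl25 were all measured.

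Levels are compared between genes as RPKM (CPM per kilobase of gene length, mean of 12 libraries). The most abundant ligands were Ccl28 at 87.8, Ccl8 at 68.4 and Cxcl14 at 41.1 RPKM, followed by Ccl6 at 35.1 and Cxcl16 at 20.4 RPKM. The most abundant receptors included Ackr3 at 26.6 and Ccr2 at 14.9 RPKM. At least 10 RPKM was reached by 13 ligands and 3 receptors, 9 ligands and 5 receptors lay between 1 and 10 RPKM, and 8 ligands and 7 receptors lay under 1 RPKM. Ccl2, the monocyte attractant that binds Ccr2, averaged 10.6 RPKM, and its chromosomal neighbours Ccl7 and Ccl12 averaged 11.1 and 10.9 RPKM, so these 3 ligands stood at nearly one level.

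**Figure D1:**
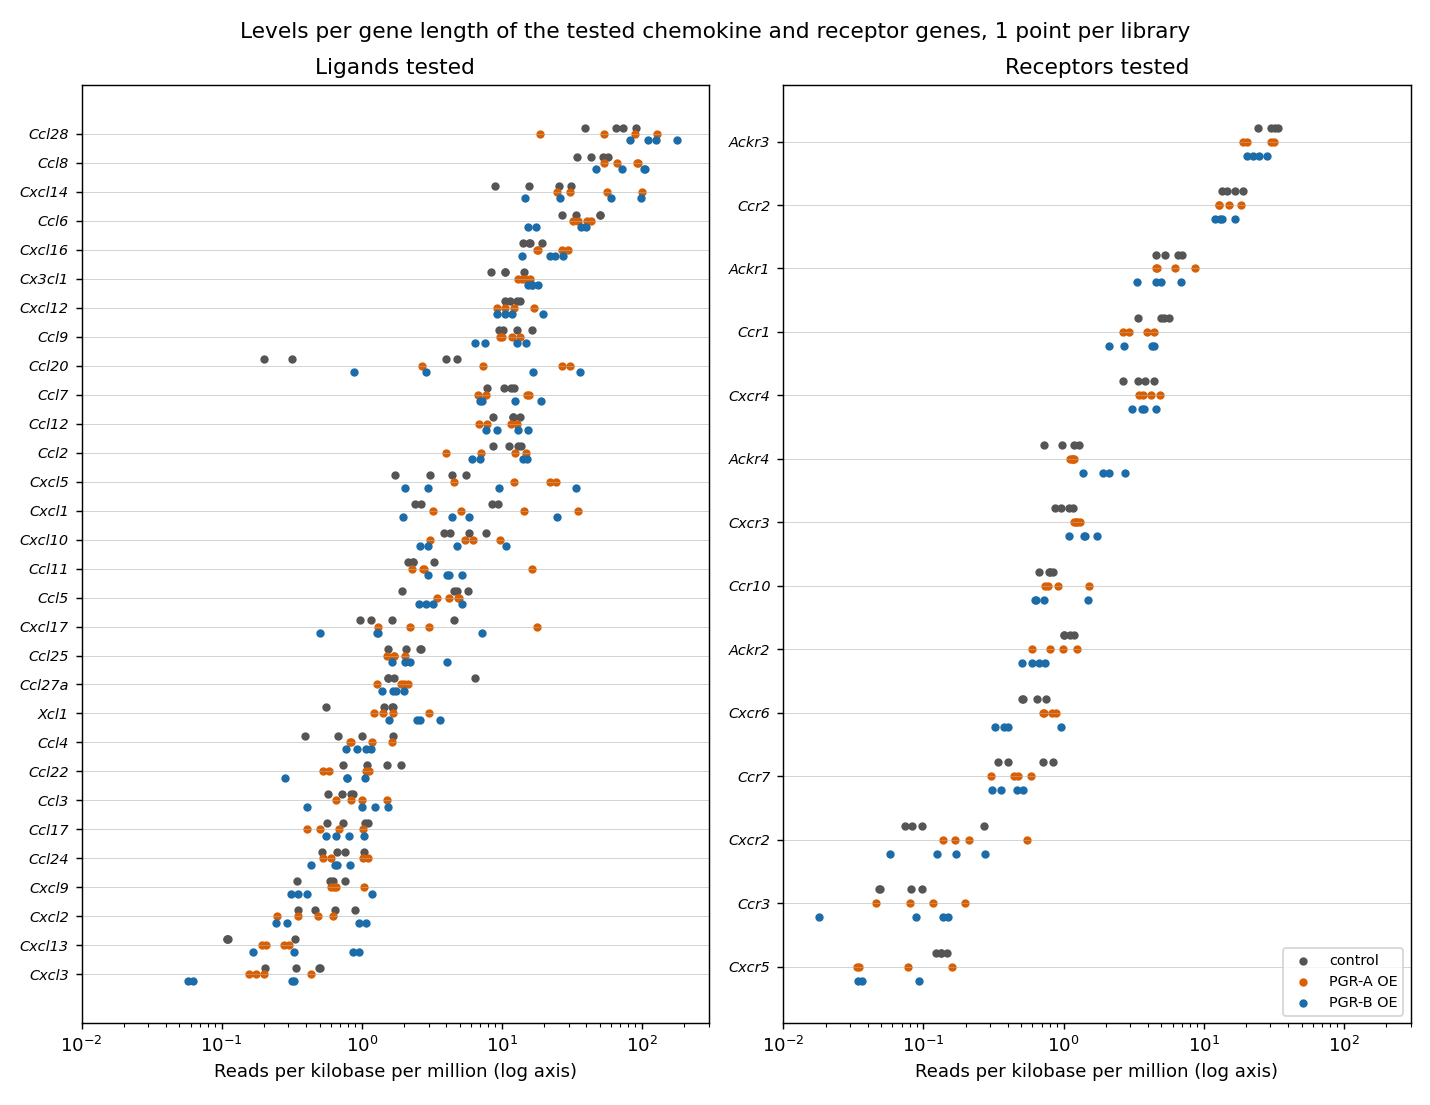
RPKM on a log axis for the 30 tested ligands (left) and 14 of the tested receptors (right), 1 point per library coloured by group, ordered by mean level. Ccl28 and Ackr3 head the columns, and Ccl20 has the widest row, with a 181-fold range between libraries.

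None of the 45 tested genes passed an adjusted p of 0.05 in any of the 3 comparisons by edgeR's quasi-likelihood test. Over all 15561 genes tested, 0.655% were called in PGR-A versus control, 0.308% in PGR-B versus control, and 0.116% between the overexpression groups. At an unadjusted p under 0.05 there were 7 members in PGR-A versus control, or 15.6% of those tested beside 15.4% of all genes. All 7 were higher and 0 lower, where 7.56% and 7.87% of all genes were higher and lower. For PGR-B versus control there were 9, or 20% of those tested beside 9.28% of all genes. Of these, 7 were higher and 2 lower, where 4.69% and 4.59% of all genes were. Between the overexpression groups there were 3, or 6.67% beside 8.04% of all genes. Here 2 were higher in PGR-B and 1 lower, where 3.28% and 4.76% of all genes were. Over the tested members the median log2 difference was 0.12, 0.07 and -0.12 in the same order, beside 0.00, -0.01 and 0.00 for all genes. DESeq2 called 0, 2 and 0 members in the same order, limma voom called 0 in each, and voom with quality weights called 1, 1 and 0. Over all genes, DESeq2 and voom with quality weights also called more than edgeR in every comparison, with the counts given in the last paragraph. The genes that another tool called were Cx3cl1 and Ackr4. Both comparisons with control use the same 4 control libraries, so a low or high control moves both.

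**Figure D2:**
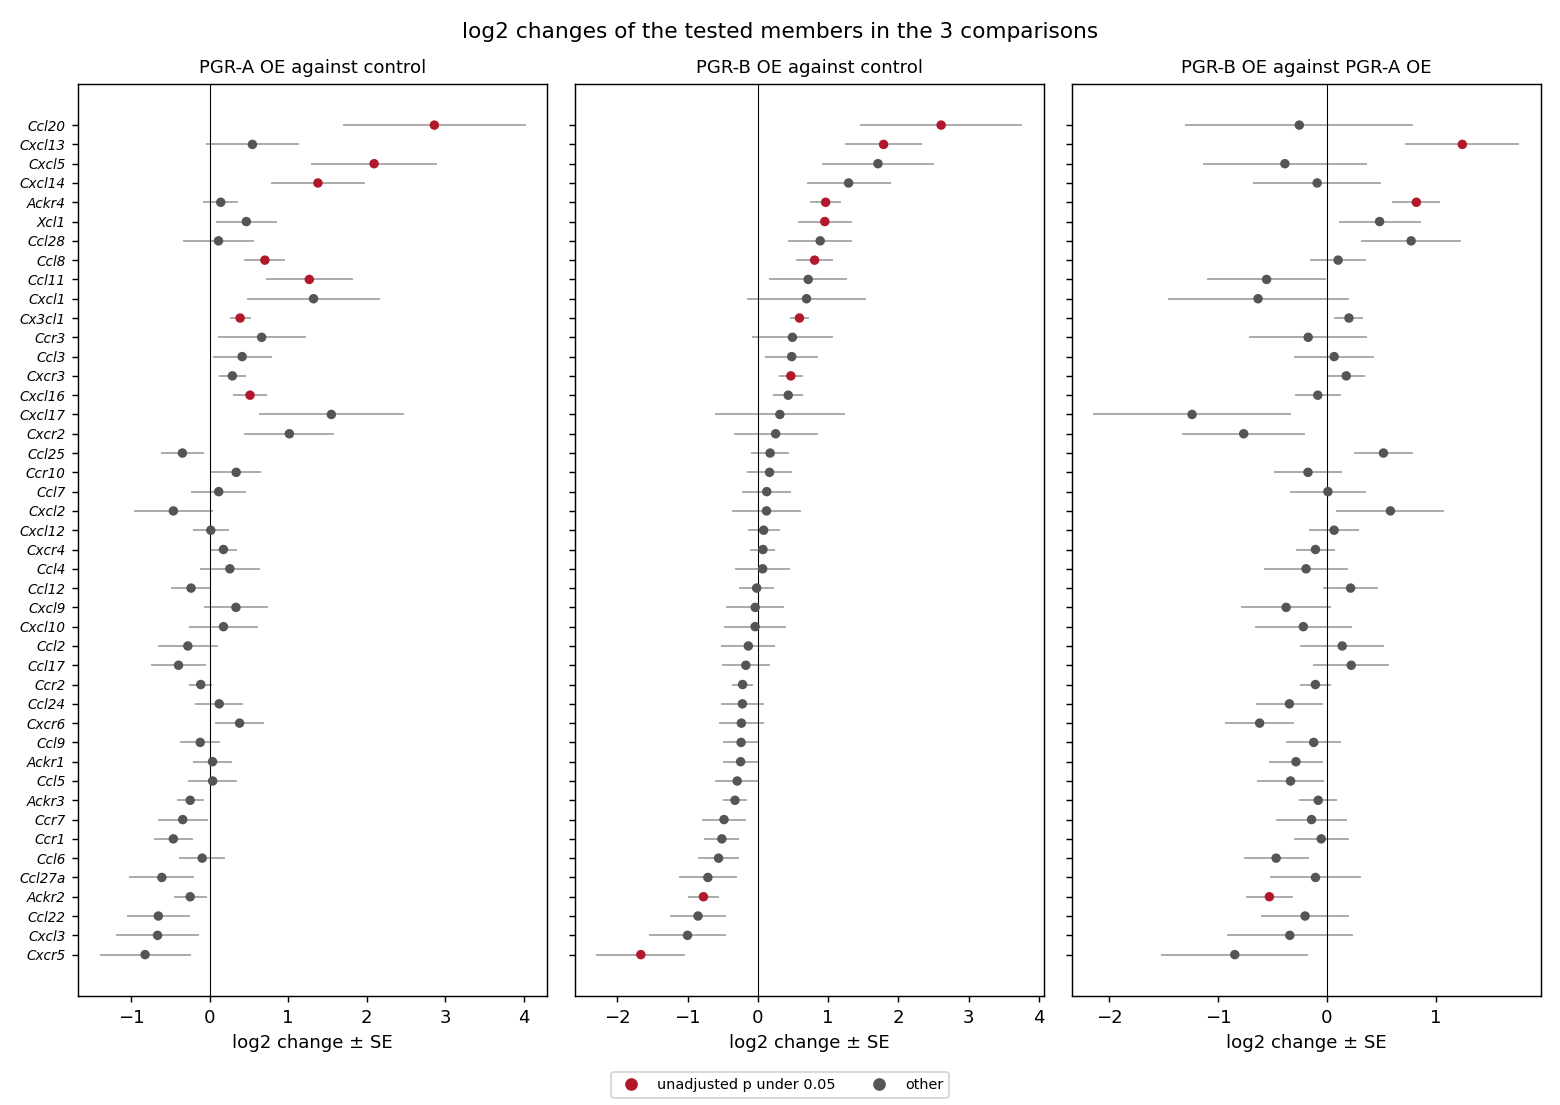
log2 differences with their standard errors for 44 of the tested members in the 3 comparisons, ordered by the difference in PGR-B versus control, with members at an unadjusted p under 0.05 in red. Ccl20 has the longest bars and the highest estimate against control in both groups, and none of the points passed the adjusted threshold.

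Cx3cl1, or fractalkine, is a membrane-bound CX3C ligand that can be shed and that binds Cx3cr1 on monocytes, macrophages and NK cells. The gene lies on chromosome 8, 94772009 to 94782427 of GRCm38. It was at 26.4, 33, 33.3 and 45.5 CPM in controls 1 to 4, 46.2, 44, 49.9 and 40.9 in PGR-A replicates 1 to 4, and 51.3, 56.6, 51.9 and 48.3 in PGR-B replicates 1 to 4. The PGR-B libraries were all above every control, while the PGR-A libraries overlapped the controls through control replicate 4, the highest of its group. Cx3cl1 had the lowest p of all members in both comparisons with control. Against control its log2 difference was 0.39 (SE 0.13, adjusted p = 0.205) for PGR-A and 0.59 (SE 0.13, adjusted p = 0.124) for PGR-B. The exact two-sided permutation test over the 8 libraries gave p = 0.0286 for PGR-B, the smallest value that 4 against 4 libraries allow, and p = 0.0857 for PGR-A. DESeq2 gave an adjusted p of 0.00543 for PGR-B versus control. Without control replicate 4, the edgeR adjusted p was 0.0380 in PGR-A and 0.00844 in PGR-B, so leaving out that library made both calls. These were the lowest of the 8 fits that each left out 1 library, and the highest were 0.430 in PGR-A and 0.354 in PGR-B. Without control replicate 1 the log2 differences were smallest, at 0.28 and 0.49. Between the overexpression groups the log2 difference was 0.20 (SE 0.13, adjusted p = 0.757). Cx3cr1, the receptor, is outside the symbol rule and was at 48.3 ± 10.0 CPM in the controls, 35.3 ± 7.37 in the PGR-A libraries and 37 ± 3.19 in the PGR-B libraries (mean ± SD, n = 4 in each), with adjusted p = 0.209 and 0.478 against control.

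Xcl1, made by NK and T cells and known to attract dendritic cells, was at 0.741, 0.286, 0.852 and 0.864 CPM in controls 1 to 4, 0.874, 0.631, 0.739 and 1.56 in PGR-A replicates 1 to 4, and 1.89, 1.34, 0.806 and 1.29 in PGR-B replicates 1 to 4. PGR-B replicate 1 was highest, and both overexpression groups overlapped the controls. Its exons overlap Gm20743 on the other strand. It is named because its unadjusted p was under 0.05 in PGR-B versus control, after its values were seen, and its adjusted p was 0.476. In the same comparison all 10 tested uterine NK cell markers had positive log2 differences, 3 of them at an unadjusted p under 0.05 and 0 called, where 4.69% of all genes were higher at that p. All 11 markers of that list, the untested one included, summed to 124 to 166 CPM among controls, 135 to 166 CPM among PGR-A and 150 to 199 CPM among PGR-B libraries. The part of these markers in the Xcl1 values was not tested.

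**Figure D3:**
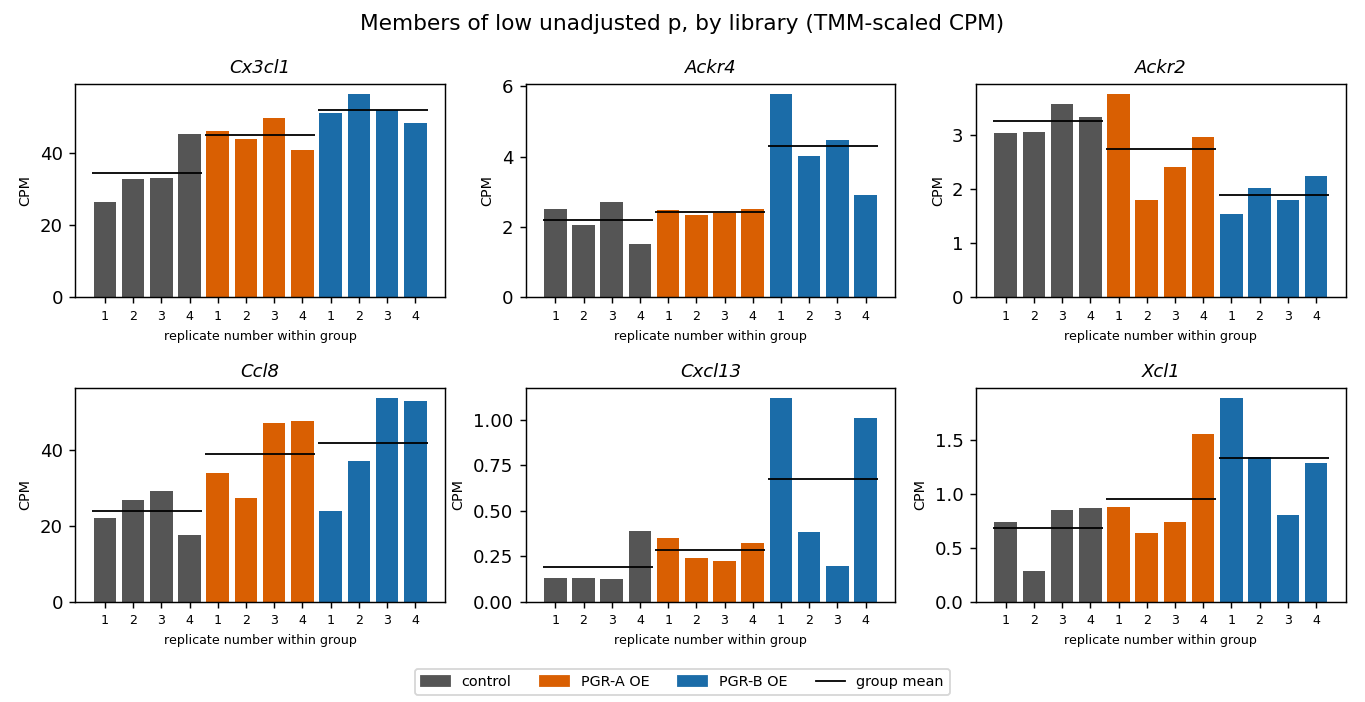
Scaled CPM of Cx3cl1, Ackr4, Ackr2, Ccl8, Cxcl13 and Xcl1 in each library, bars coloured by group and numbered by replicate, with a line at each group mean. The PGR-B bars of Cx3cl1 and Ackr4 are all above the control bars, and those of Ackr2 are all below them.

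The CXC ligands with an ELR motif attract neutrophils through Cxcr2. Cxcl5, Cxcl3, Cxcl15, Cxcl1 and Cxcl2 lie together on chromosome 5 between 90759360 and 90905938. Ccl20, a CC ligand of Ccr6 on chromosome 1, 83116766 to 83119167, is described with them because Ccl20, Cxcl5 and Cxcl1 were high in the same libraries. Promoter sequences from RefSeq (GRCm38.p6, 250 bases before the start site, all on the + strand) are shown for Ccl20, Cxcl1, Cxcl2 and Cxcl3, since they hold a match to the kB consensus, the element bound by NF-kB, a transcription factor known to drive inflammatory chemokines. Capitals mark the matched bases, on either strand.
Ccl20 chr1:83116516-83116765: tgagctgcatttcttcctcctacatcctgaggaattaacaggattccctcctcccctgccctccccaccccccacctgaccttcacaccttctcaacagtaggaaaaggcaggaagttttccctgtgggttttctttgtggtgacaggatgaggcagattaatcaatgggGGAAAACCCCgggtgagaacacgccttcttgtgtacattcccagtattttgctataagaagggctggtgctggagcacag
Cxcl1 chr5:90890995-90891244: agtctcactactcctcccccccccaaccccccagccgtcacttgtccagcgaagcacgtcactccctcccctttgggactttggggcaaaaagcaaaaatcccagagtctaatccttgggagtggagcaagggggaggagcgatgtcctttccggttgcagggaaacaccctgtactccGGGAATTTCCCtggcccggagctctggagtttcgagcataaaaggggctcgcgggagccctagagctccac
Cxcl2 chr5:90903649-90903898: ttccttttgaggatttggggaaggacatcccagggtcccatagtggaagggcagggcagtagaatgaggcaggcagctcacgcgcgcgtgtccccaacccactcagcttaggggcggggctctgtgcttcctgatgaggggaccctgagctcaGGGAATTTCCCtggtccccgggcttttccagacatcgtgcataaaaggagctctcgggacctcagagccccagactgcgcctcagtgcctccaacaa
Cxcl3 chr5:90785851-90786100: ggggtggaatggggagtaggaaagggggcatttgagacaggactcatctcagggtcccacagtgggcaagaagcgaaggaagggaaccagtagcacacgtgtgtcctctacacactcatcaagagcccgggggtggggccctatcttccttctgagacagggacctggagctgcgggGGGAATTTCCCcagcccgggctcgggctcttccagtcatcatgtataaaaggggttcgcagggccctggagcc
In Cxcl1, Cxcl2 and Cxcl3 the capitals are the same 11 bases and hold 2 matches of 10 bases that overlap, 1 on each strand. They begin 71, 97 and 73 bases before the start sites, and the match of Ccl20 begins 80 bases before its own. A kB match was present in 9 of the 50 promoters found for 43 of the 59 genes (18.0%), beside 1281 of all 32841 promoters of that length (3.90%). The 9 belonged to Ackr2, Ccl20, Ccl9, Ccr3, Ccr6, Cxcl1, Cxcl10, Cxcl2 and Cxcl3. The consensus progesterone response element matched 0 of the 50 and 0.387% of all promoters, and AGAACA, one arm of that element, matched 16.0% and 16.1%, with both strands searched for each. A match describes letters only, and Cxcl5 and Ccl2 are named without a sequence.

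Ccl20 was at 0.161, 0.254, 3.19 and 3.81 CPM in controls 1 to 4, 2.16, 21.6, 24.7 and 5.93 in PGR-A replicates 1 to 4, and 2.30, 13.4, 0.709 and 29.1 in PGR-B replicates 1 to 4. Control replicates 1 and 2 had the lowest values and PGR-B replicate 4, PGR-A replicate 3 and PGR-A replicate 2 the highest, and the groups overlapped. Within groups the spread was wide, with 1.85 ± 1.92 CPM in the controls, 13.6 ± 11.2 in the PGR-A libraries and 11.4 ± 13.1 in the PGR-B libraries (mean ± SD, n = 4 in each). For PGR-A versus control the log2 difference was 2.86 (SE 1.16, adjusted p = 0.272), and a mean 7.33 times that of the controls did not pass the test. The PGR-B mean was 6.14 times that of the controls, with adjusted p = 0.523.

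Cxcl5, which attracts neutrophils, was at 2.87, 5.06, 9.22 and 7.33 CPM in controls 1 to 4, 7.57, 36.5, 40.4 and 20.3 in PGR-A replicates 1 to 4, and 3.36, 15.9, 4.93 and 55.9 in PGR-B replicates 1 to 4. PGR-B replicate 4 was highest and PGR-A replicates 3 and 2 followed, the same 3 libraries as for Ccl20. Its log2 difference was 2.09 (SE 0.80, adjusted p = 0.245) in PGR-A versus control, where only PGR-A replicate 1 lay within the control range, and the exact permutation p was 0.0571.

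Cxcl1, the neutrophil attractant also known as KC, was at 2.29, 2.51, 8.08 and 8.87 CPM in controls 1 to 4, 3.09, 13.6, 33.1 and 4.82 in PGR-A replicates 1 to 4, and 4.16, 5.55, 1.87 and 23.6 in PGR-B replicates 1 to 4. The same 3 libraries were again the highest, with PGR-A replicate 3 first, while PGR-A replicates 1 and 4 and PGR-B replicates 1 to 3 lay within or below the control range. Against control, PGR-A differed by a log2 value of 1.32 (SE 0.85, adjusted p = 0.481) and PGR-B by 0.69 (SE 0.85, adjusted p = 0.866). Without PGR-B replicate 4 the second value was -0.49, so 1 library set its direction.

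Cxcl2 and Cxcl3, the neighbours of Cxcl1 with the same 11 bases, did not share this order of libraries. Cxcl2 lay between 0.265 and 1.16 CPM and Cxcl3 between 0.0590 and 0.516 CPM. PGR-B replicate 4 had the highest Cxcl2 and control replicate 1 the highest Cxcl3. Counts per library were only 9 to 38 for Cxcl2 and 2 to 16 for Cxcl3, beside 58 to 1032 for Cxcl1, so their order is uncertain. Cxcl15, or lungkine, had 359 counts in PGR-A replicate 4 and at most 3 in each of the other 11 libraries, 17 in all. Cxcr2, the receptor for these ligands on neutrophils, reached 1.67 CPM in PGR-A replicate 4 but no more than 0.838 CPM elsewhere. Of 8 neutrophil markers 4 were tested and 0 called, and their sum was 8.41 to 16.3 CPM for controls, 14.9 to 18.9 for PGR-A and 10.4 to 22.8 for PGR-B. In the 3 libraries highest for Ccl20, Cxcl5 and Cxcl1 the neutrophil sum was 16.4, 15.6 and 16.2 CPM for PGR-A replicates 2 and 3 and PGR-B replicate 4. PGR-B replicate 3, low for all 3 ligands, had the highest sum. The part of the neutrophil markers in the ligand values was not tested.

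**Figure D4:**
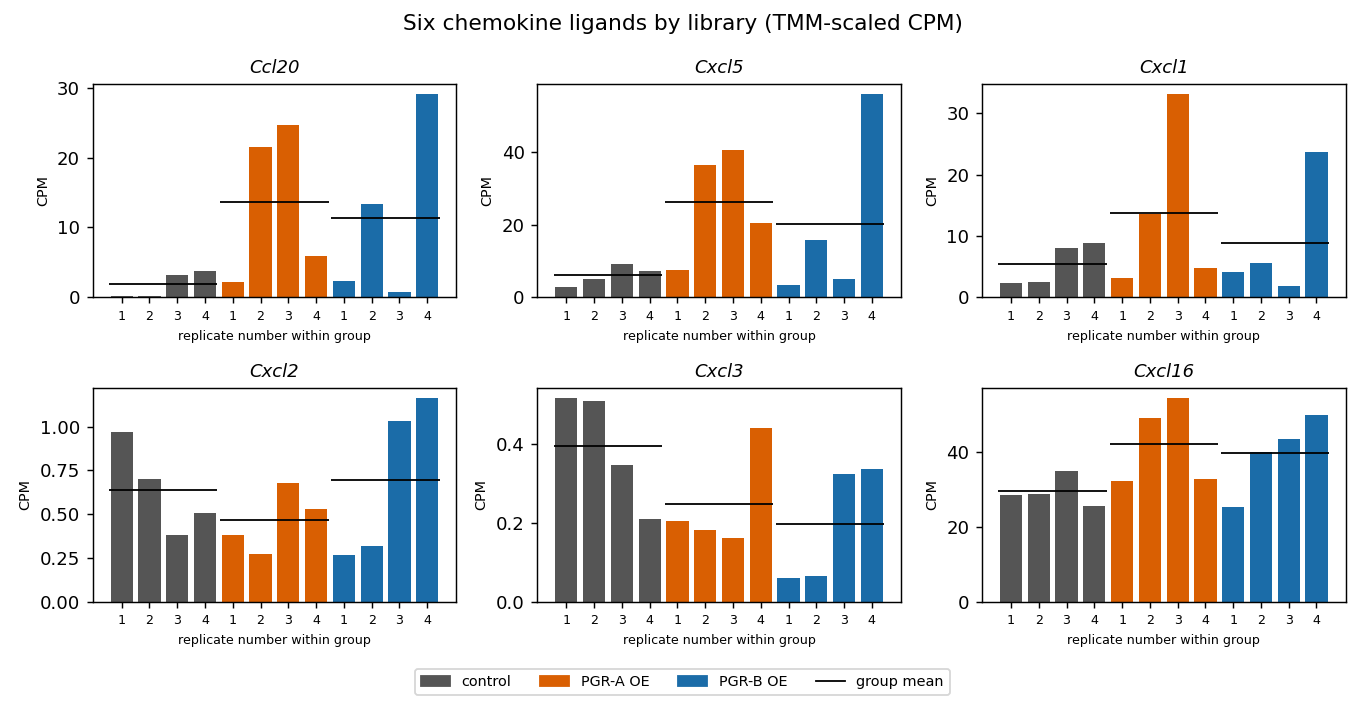
Scaled CPM of Ccl20, Cxcl5, Cxcl1, Cxcl2, Cxcl3 and Cxcl16 in each library, bars coloured by group and numbered by replicate, with a line at each group mean. PGR-A replicates 2 and 3 and PGR-B replicate 4 are the 3 tallest bars for Ccl20, Cxcl5, Cxcl1 and Cxcl16, and not for Cxcl2 or Cxcl3.

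The other CXC ligands include Cxcl12, which holds leukocytes in tissues, and the transmembrane ligand Cxcl16, which binds Cxcr6. Cxcl14, an epithelial chemokine, was at 28.4, 16.5, 56.7 and 47.2 CPM in controls 1 to 4, 184, 102, 55.8 and 45.1 in PGR-A replicates 1 to 4, and 179.8, 109.6, 26.9 and 47.7 in PGR-B replicates 1 to 4. Replicates 1 and 2 of both overexpression groups lay above all controls and replicates 3 and 4 of both groups within the control range. Against control its adjusted p was 0.300 for PGR-A and 0.545 for PGR-B. Cxcl16 was at 28.3, 28.7, 34.9 and 25.6 CPM in controls 1 to 4, 32.2, 48.9, 54.3 and 32.6 in PGR-A replicates 1 to 4, and 25.3, 39.8, 43.4 and 49.8 in PGR-B replicates 1 to 4. PGR-A replicates 3 and 2 and PGR-B replicate 4 were its 3 highest libraries, as for Ccl20, Cxcl5 and Cxcl1. Its 5 highest libraries were all overexpression libraries, and the groups overlapped. In PGR-A versus control the difference was 0.52 (SE 0.21, adjusted p = 0.279) on the log2 scale. Exons of Cxcl16 overlap those of Zmynd15 on the other strand, and whether strand was used in counting is not given in the sources used here, so its counts are uncertain.

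Cxcl13, the B cell attractant that binds Cxcr5, was at 0.129, 0.127, 0.126 and 0.387 CPM in controls 1 to 4, 0.350, 0.241, 0.225 and 0.323 in PGR-A replicates 1 to 4, and 1.12, 0.383, 0.193 and 1.01 in PGR-B replicates 1 to 4. PGR-B replicates 1 and 4 stood above the other 10 libraries, and the counts behind these values ran from 4 to 38 per library. PGR-B differed from control by a log2 value of 1.79 (SE 0.55, adjusted p = 0.317) and from PGR-A by 1.24 (SE 0.52, adjusted p = 0.590). Of the interferon-inducible ligands, Cxcl9 lay between 0.902 and 3.46 CPM and Cxcl10 between 2.86 and 11.8 CPM, with PGR-B replicate 4 highest for both. Exons of Cxcl10 overlap those of Art3 on the other strand. Cxcl12 lay between 66.2 and 141 CPM with means of 86.7 ± 9.45 CPM for controls, 87.7 ± 24.2 for PGR-A and 91.8 ± 33.5 for PGR-B (± SD, n = 4 in each). Cxcl17, a mucosal chemokine, peaked in PGR-A replicate 4 at 13.5 CPM, with at most 5.46 CPM elsewhere.

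The monocyte-attracting CC ligands lie in 2 clusters on chromosome 11, with Ccl2, Ccl7, Ccl11, Ccl12, Ccl8 and Ccl1 between 82035571 and 82305690 and Ccl5, Ccl9, Ccl6, Ccl3 and Ccl4 between 83525778 and 83664683. Ccl2 was at 7.0, 11, 9.09 and 10.5 CPM in controls 1 to 4, 12, 5.77, 10.0 and 3.23 in PGR-A replicates 1 to 4, and 4.96, 5.62, 11.4 and 12.2 in PGR-B replicates 1 to 4. The lowest value was in PGR-A replicate 4 and the highest in PGR-B replicate 4, and the control range lay within that of each overexpression group. Against control, the log2 difference was -0.28 (SE 0.39, adjusted p = 0.773) for PGR-A and -0.14 (SE 0.38, adjusted p = 0.949) for PGR-B. The second value was 0.05 without PGR-B replicate 1 and 0.02 without PGR-B replicate 2, so its direction rested on single libraries.

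Ccl8, a further monocyte chemoattractant protein, was at 22, 26.9, 29.2 and 17.6 CPM in controls 1 to 4, 33.8, 27.4, 47.1 and 47.7 in PGR-A replicates 1 to 4, and 23.9, 37, 53.7 and 52.9 in PGR-B replicates 1 to 4. Replicates 3 and 4 of both overexpression groups were the 4 highest libraries, and 3 of 4 libraries in each of these groups lay above all controls. Its log2 difference from control was 0.70 (SE 0.26, adjusted p = 0.232) for PGR-A and 0.81 (SE 0.26, adjusted p = 0.352) for PGR-B, and that between the overexpression groups was 0.10 (SE 0.26, adjusted p = 0.943). The other 8 ligands of this family, Ccl2 included, had no unadjusted p under 0.05 in any comparison. Ccl6, a macrophage product that binds Ccr1, lay between 22 and 72.2 CPM with PGR-B replicates 1 and 2 lowest, and Ccl9, its neighbour, between 19.4 and 49.3 CPM with the same 2 libraries lowest. The 11 macrophage and monocyte markers, all tested and 0 called, were also lowest in those 2 libraries, at 1107 and 1171 CPM beside 1326 to 1727 CPM for the remaining 10, and their part in the Ccl6 and Ccl9 values was not tested.

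Among ligands of eosinophil and type 2 responses, Ccl11, or eotaxin, was at 3.51, 2.48, 2.49 and 2.29 CPM in controls 1 to 4, 3.0, 2.95, 2.44 and 17.6 in PGR-A replicates 1 to 4, and 4.37, 5.62, 3.19 and 4.53 in PGR-B replicates 1 to 4. PGR-A replicate 4 was the highest library by a wide margin, and the other 3 PGR-A libraries lay within the control range. Ccl22 and Ccl17, both ligands of Ccr4, lay between 0.511 and 3.43 CPM and between 0.210 and 0.566 CPM, and Ccl24, a further eotaxin, between 0.560 and 1.44 CPM. Of the 5 tested eosinophil and mast cell markers, 4 had positive log2 differences in PGR-A versus control, with a median of 0.95. At an unadjusted p under 0.05, 3 were higher and 1 lower, beside 7.56% and 7.87% of all genes, and the lower one, Il5ra, the interleukin 5 receptor of eosinophils, was called by edgeR (adjusted p = 0.0495). The other 4 are mast cell markers. All 8 markers of the list, Il5ra included, summed to 49.9 to 83.5 CPM for PGR-A beside 45.2 to 72.2 CPM for controls.

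The barrier CC ligands are made by epithelia. Ccl28, a mucosal ligand of Ccr10 and Ccr3 on chromosome 13, 119623819 to 119654359, was at 147, 244, 272 and 339 CPM in controls 1 to 4, 201, 336, 477 and 69.6 in PGR-A replicates 1 to 4, and 306, 665, 411 and 470.5 in PGR-B replicates 1 to 4. PGR-A replicate 4 had the lowest value and PGR-B replicate 2 the highest, and the groups overlapped. The PGR-B mean of 463 ± 151 CPM was 1.85 times the control mean of 250.4 ± 79.9 CPM (± SD, n = 4 in each), with adjusted p = 0.583. The 7 epithelial markers were highest in PGR-A replicate 4, the library with the least Ccl28, at 2597 CPM beside 1241 to 2281 CPM elsewhere. Their part in the Ccl28 values was not tested. Ccl25, a ligand of Ccr9 known from thymus and gut, was at 3.39, 3.31, 1.96 and 2.62 CPM in controls 1 to 4, 1.92, 2.59, 2.18 and 2.17 in PGR-A replicates 1 to 4, and 2.83, 2.62, 5.16 and 2.11 in PGR-B replicates 1 to 4. PGR-B replicate 3 was the highest library, and the log2 difference was 0.52 (SE 0.27, adjusted p = 0.676) in PGR-B versus PGR-A. Its exons overlap Elavl1 on the other strand, so its counts are uncertain. Ccl27a was highest in control replicate 4 at 20.8 CPM, beside 4.18 to 6.94 CPM for the remaining 11 libraries. Its exons overlap Il11ra1 on the other strand.

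The signalling receptors sit on the leukocytes that the ligands attract. Ccr2, the receptor of Ccl2 on monocytes, was at 48.5, 60.5, 53.1 and 69 CPM in controls 1 to 4, 54.8, 46, 46.4 and 66.5 in PGR-A replicates 1 to 4, and 43.2, 46.9, 48.3 and 60.1 in PGR-B replicates 1 to 4. The groups overlapped, and no comparison had an unadjusted p under 0.05. All 6 tested CC receptors had negative log2 differences in PGR-B versus PGR-A, with 0 at an unadjusted p under 0.05, and 13 of the 15 tested receptors of all kinds were negative there beside 7595 of all 15561 genes.

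Cxcr6, the receptor of Cxcl16 on T and NK cells, was at 1.23, 0.954, 0.979 and 1.43 CPM in controls 1 to 4, 1.57, 1.68, 1.35 and 1.38 in PGR-A replicates 1 to 4, and 0.708, 0.766, 0.612 and 1.81 in PGR-B replicates 1 to 4. The first 3 PGR-B libraries were the 3 lowest of the 12 and PGR-B replicate 4 the highest, and the log2 difference was -0.62 (SE 0.31, adjusted p = 0.671) in PGR-B versus PGR-A. Cxcr3, the receptor of Cxcl9 and Cxcl10, was the only tested member whose PGR-A libraries did not overlap the controls, at 2.01, 1.98, 2.12 and 1.91 CPM beside 1.87, 1.75, 1.39 and 1.55 CPM in control. That is 2.22% of the tested members beside 10.6% of all genes, of which 5.01% were higher and 5.57% lower, and its adjusted p was 0.448. PGR-B and control did not overlap for 4 members, or 8.89% beside 5.67% of all genes. They were Cx3cl1 and Ackr4, which were higher as were 3.07% of all genes, and Ackr2 and Cxcr5, which were lower as were 2.6% of all genes. Cxcr5, the receptor of Cxcl13, was at 0.322, 0.350, 0.347 and 0.387 CPM in control and 0.0885, 0.0957, 0 and 0.245 CPM in PGR-B, with adjusted p = 0.448. These Cxcr5 values rest on few counts, 45 over the 4 controls and 14 over the 4 PGR-B libraries. Its exons overlap Bcl9l on the other strand, and both Cxcr3 and Cxcr5 are named after their values were seen.

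Of the 4 atypical receptors, Ackr4 and Ackr2 were among the members of lowest p. Ackr4, on chromosome 9, 104084157 to 104126933, takes up Ccl19, Ccl21 and Ccl25. It was at 2.51, 2.07, 2.71 and 1.52 CPM in controls 1 to 4, 2.48, 2.35, 2.41 and 2.50 in PGR-A replicates 1 to 4, and 5.78, 4.02, 4.48 and 2.91 in PGR-B replicates 1 to 4. The PGR-B libraries lay above all 8 others, with replicate 1 highest, and the 4 PGR-A libraries lay within the control range. PGR-B differed from control by 0.96 (SE 0.22, adjusted p = 0.130) and from PGR-A by 0.82 (SE 0.22, adjusted p = 0.303) on the log2 scale, and the exact permutation p was 0.0286 in each, the smallest possible. Ackr4 was the only tested member whose 2 overexpression groups did not overlap, or 2.22% of those tested beside 3.85% of all genes and the 1.5% of all genes that were higher in PGR-B. DESeq2 gave an adjusted p of 0.00710 against control, the lowest of 18 alternatives. By edgeR, leaving out 1 library at a time gave adjusted p of 0.0791 to 0.362 in that comparison. PGR-A differed from control by 0.14 (SE 0.22, adjusted p = 0.801). Its exons overlap Acad11 on the other strand, so its counts are uncertain.

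Ackr2, on chromosome 9, 121898355 to 121911074, clears inflammatory CC ligands and is known from lymphatic endothelium. It was at 3.03, 3.05, 3.57 and 3.34 CPM in controls 1 to 4, 3.76, 1.80, 2.41 and 2.97 in PGR-A replicates 1 to 4, and 1.53, 2.01, 1.80 and 2.23 in PGR-B replicates 1 to 4. The PGR-B libraries lay below all controls and within the range of PGR-A or below it. On the log2 scale PGR-B differed from control by -0.78 (SE 0.21, adjusted p = 0.242) and from PGR-A by -0.53 (SE 0.21, adjusted p = 0.568), and PGR-A differed from control by -0.25 (SE 0.21, adjusted p = 0.607). All 5 lymphatic endothelial markers were counted, and all 5 had negative log2 differences in PGR-B versus control, 4 at an unadjusted p under 0.05 and 0 called, where 4.59% of all genes were lower at that p. The 5 summed to 308 to 357 CPM for controls, 274 to 307 CPM for PGR-A and 214 to 294 CPM for PGR-B. The PGR-B sums lay below every control, while the highest PGR-A sum (307.1 CPM) was almost the same as the lowest control sum (307.6 CPM). The part of these markers in the Ackr2 and Ackr4 values was not tested.

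Ackr3, which takes up Cxcl12, was at 74.4, 70.8, 78.7 and 56.3 CPM in controls 1 to 4, 44.3, 47.6, 69.9 and 74.4 in PGR-A replicates 1 to 4, and 58.1, 47.2, 51.8 and 66.2 in PGR-B replicates 1 to 4. PGR-A replicates 1 and 2 and PGR-B replicate 2 were the lowest libraries, and the groups overlapped. Ackr1, a receptor of venules that carries many inflammatory chemokines, lay between 3.89 and 10.0 CPM. Its exons overlap those of Cadm3 on the same strand, so its counts are uncertain. Neither Ackr3 nor Ackr1 had an unadjusted p under 0.05 in any comparison.

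The 41 tested genes of chemokine receptor signalling (G proteins, kinases, arrestins and similar) had 0 calls in each comparison by edgeR. At an unadjusted p under 0.05 there were 4 for PGR-A and 3 for PGR-B against control, and 2 between the overexpression groups. These shares of 9.76%, 7.32% and 4.88% lay below the 15.4%, 9.28% and 8.04% of all genes. The 32 tested genes of chemokine induction by NF-kB and cytokines had 0 calls, and in the same order 8, 3 and 2 at an unadjusted p under 0.05, or 25%, 9.38% and 6.25% beside those same shares of all genes. Of the 8 in PGR-A versus control, 7 were higher and 1 lower. The sum over all 35 genes of this list was highest in PGR-B replicate 4 at 2159 CPM and PGR-A replicate 3 at 2112 CPM, beside 1665 to 1906 CPM for the remaining 10 libraries. Those 2 libraries were also the 2 highest for Ccl20, Cxcl5 and Cxcl1, and the part of these genes in the ligand values was not tested. The 9 other tested chemokine system genes outside the symbol rule, Cx3cr1 among them, had 0 calls, and 1, 1 and 0 at an unadjusted p under 0.05.

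Libraries of one group differed more in these genes than in most others. Their SD of log2 CPM within groups had a median of 0.49 over the 45 members, 0.60 for ligands and 0.39 for receptors, beside 0.19 for all genes tested, and all 45 members lay above that. This SD includes counting error, which is larger at low counts. It was 2.13 for Ccl20, 1.41 for Cxcl17, 1.38 for Cxcl1 and 1.30 for Cxcl5. Among members with more than 3 counts in every library, the ratio of the highest to the lowest library was over 10 for 5 of them, at 181 for Ccl20, 35.4 for Cxcl17, 19.5 for Cxcl5, 17.7 for Cxcl1 and 11.2 for Cxcl14. Cxcr3 at 0.19 and Cx3cl1 at 0.21 varied least. PGR-B replicate 4 held the highest value of 10 members and PGR-B replicate 1 the lowest of 13, so the 2 libraries at the ends belonged to 1 group.

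**Figure D5:**
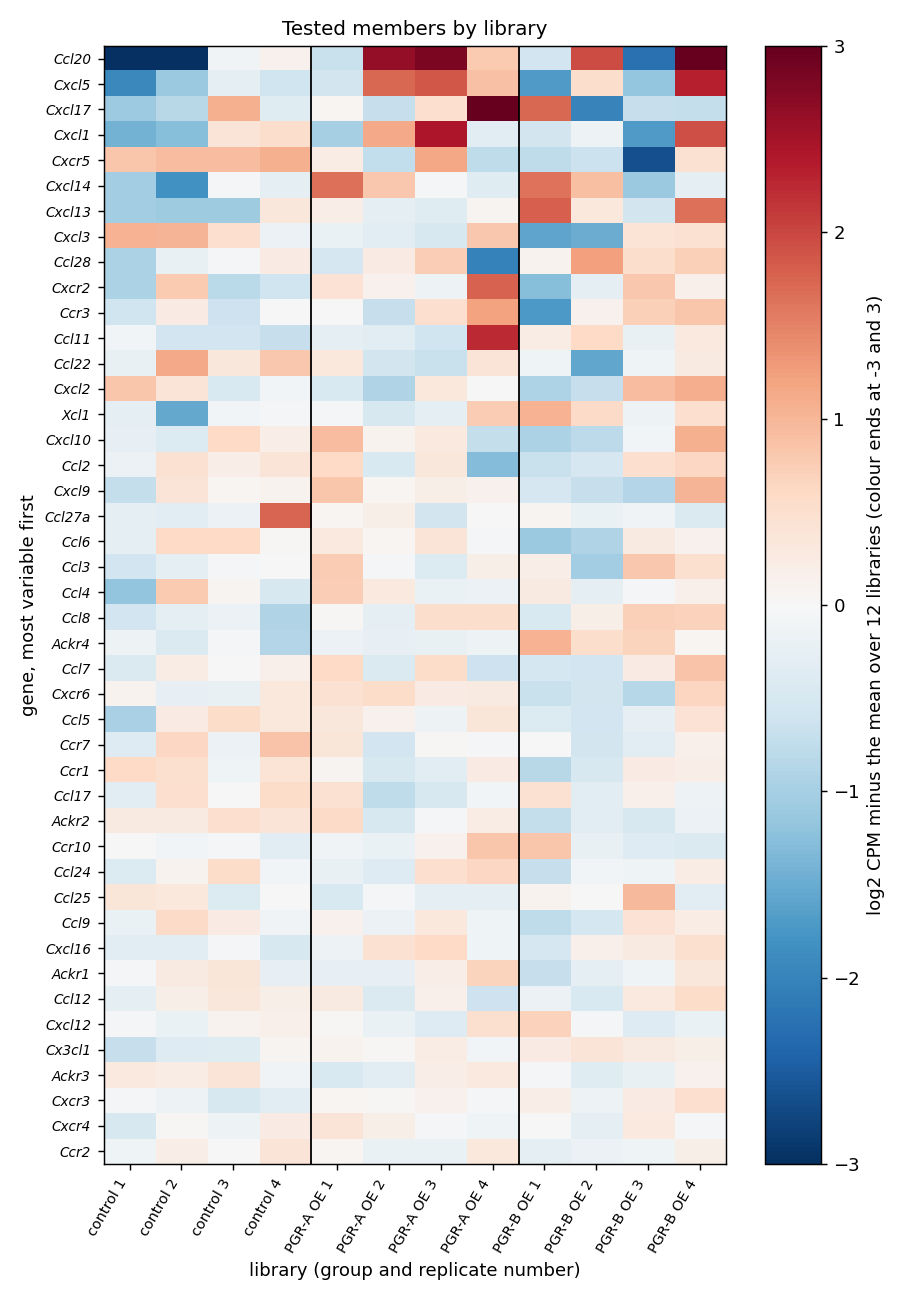
log2 CPM of 44 tested members in each of the 12 libraries, shown as the difference from the gene's mean over all libraries, red higher and blue lower, with the most variable genes on top and the colour ending at -3 and 3. The strong colours of Ccl20, Cxcl5 and Cxcl1 run along single libraries and do not fill a group.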

How the data were processed

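RNA of uterine tissue from 12 libraries was sequenced in read pairs of 75 bases with the TruSeq RNA kit, per the labels' protocols. The deposited table holds raw read counts per gene and a gene length in bases. The tools named per the submitters' processing notes are STAR 2.7.0f, Bowtie2 2.2.5, DESeq2 and featureCounts of Subread 1.6.4, and the build is mm10 (GRCm38). For annotation, strand and multi-mapping the settings are not given in these sources.

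Counts were tested with edgeR 4.0.16 (R 4.3.3), TMM scaling, the filterByExpr filter and a robust quasi-likelihood fit of all 12 libraries in 3 groups, with Benjamini-Hochberg adjustment over 15561 genes and a threshold of 0.05. The analysis was tested on simulated data. CPM are TMM-scaled, log2 CPM use a prior count of 1, and RPKM divide CPM by the deposited length. Libraries of a group were checked for identity, and none were alike within sampling noise. Alternatives were DESeq2 1.42.0, limma 3.58.1 (voom), other scalings and filters, a replicate block and leaving out libraries, and voom with quality weights was added after the data were seen. Positions come from GENCODE M21 (58 of 59 genes matched), and exons of 10 members overlap another gene. Promoters come from RefSeq (GRCm38.p6).

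Members and gene lists were chosen with earlier results of these data known. Values in every library are given for Ccl2, Cxcl1, the 5 members of lowest p in each comparison and the 3 ligands and 3 receptors of highest RPKM, except that 1 member is not reported here, though it is included in the counts. Ccl11 and Xcl1, also given in every library, and other members named with single values were chosen after their values were seen.

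Marker lists were those of leukocytes, macrophages and monocytes, neutrophils, uterine NK cells, T cells, B and plasma cells, dendritic cells, eosinophils and mast cells, lymphatic and blood endothelium, smooth muscle, fibroblasts, mesothelium, epithelium, decidua and trophoblast. By edgeR, 0 genes of these lists were called in any comparison, except 1 fibroblast gene called higher and 1 eosinophil and mast cell gene called lower in PGR-A OE libraries than in controls.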

Additional observations from a re-analysis of the deposited data

Results flagged for a closer look

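In 141 sets of 4 libraries (49 members with at least 10 counts in some library, by group), a library was marked where its gap to the nearest other, divided by the range of the group, exceeded Dixon's 95% critical value for 4 libraries. This marked 14 values. Chance alone marks about 5% of groups where values are normally distributed, and that rate may not hold for CPM, which were not logged here. PGR-A replicate 4 held 4 of them, at 17.6 CPM for Ccl11, 10.55 CPM for Cxcl15, 13.54 CPM for Cxcl17 and 0.4406 CPM for Cxcl3, each the highest PGR-A value. PGR-B replicate 4 held 3, at 23.59 CPM for Cxcl1, 3.458 CPM for Cxcl9 and 1.805 CPM for Cxcr6. PGR-B replicate 1 held 2, at 2.596 CPM for Ccr10 and 5.457 CPM for Cxcl17. Control replicate 4 held 2, at 20.79 CPM for Ccl27a and 0.3871 CPM for Cxcl13. Single values were those of Ccl11 in control replicate 1 (3.514 CPM), Cxcr2 in control replicate 2 (0.8268 CPM) and Cxcl9 in PGR-A replicate 1 (3.029 CPM). All 14 lay above the other 3 libraries of their group. No member moved in opposite directions in every library of the 2 overexpression groups.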

How the results depend on the processing

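The number of members called was 0 in each comparison by edgeR, and it was 0 between the overexpression groups under every alternative run. In PGR-A versus control it was 1 by voom with quality weights and 1 without both PGR-A replicate 4 and control replicate 4, and leaving out 1 replicate gave 0 to 1. In PGR-B versus control it was 2 by DESeq2, 1 by voom with quality weights and 1 without both of those libraries, and leaving out 1 replicate gave 0 to 1. Cx3cl1 was called in each of these cases, and Ackr4 by DESeq2. Leaving out control replicate 4 made the call in both comparisons. The replicate block called 0 members in each comparison. Of 12 same-numbered pairs of libraries, 2 had correlated deviations over 0.1 (range -0.247 to 0.182). These correlations over all genes showed no general pairing by number. They cannot exclude one, since libraries that stand apart, such as PGR-A replicate 4, also shape them.

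Of 428 log2 differences of named genes under alternatives, 410 kept their direction and side of the threshold, 8 passed it and 10 changed sign. In PGR-A versus control these were Ackr4 at -0.0003953 without control replicate 4 and -0.01495 without both libraries, and Ccl2 at 0.03459 without both. In PGR-B versus control they were Ccl2 at 0.06011 by voom with quality weights, 0.05347 without PGR-B replicate 1 and 0.02372 without PGR-B replicate 2, and Cxcl1 at -0.4928 without PGR-B replicate 4. In PGR-B versus PGR-A they were Ccl8 at -0.03076 without PGR-A replicate 2, -0.04024 without PGR-B replicate 3 and -0.02768 without PGR-B replicate 4. Over all alternatives that leave out 1 library or both, these 5 ranged from -0.01495 to 0.259 (Ackr4), -0.5686 to 0.03459 (Ccl2, PGR-A versus control), -0.357 to 0.05347 (Ccl2, PGR-B versus control), -0.4928 to 1.036 (Cxcl1) and -0.04024 to 0.2964 (Ccl8). The cause was not tested.

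Over all genes the calls in the 3 comparisons were 102, 48 and 18 by edgeR, 567, 221 and 125 by DESeq2, 95, 38 and 21 by limma voom, 1045, 156 and 81 by voom with quality weights, 69, 32 and 11 with the replicate block, and 63, 44 and 10 from the 8 libraries compared alone. They were 96, 91 and 38 without both libraries and 240, 79 and 29 at a threshold of 0.1. Leaving out 1 replicate gave 32 to 99, 22 to 48 and 11 to 31. The log2 differences of Ccl20 (2.86) and Cxcl5 (2.09) in PGR-A versus control had standard errors of 1.16 and 0.80 and did not pass the test.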
